A study of Canis lupus familiaris with 6 samples.

Results

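Aminoacyl-tRNA synthetases attach each amino acid to the tRNA that reads its codons, and animal cells keep one set of these enzymes in the cytosol and another, also encoded in the nucleus, in mitochondria. The transcripts described here are those of 35 synthetase genes, 19 cytosolic (symbols ending in 1, with FARSA and FARSB) and 16 mitochondrial (symbols ending in 2). They were taken by gene symbol from a fixed list, and all 35 were found among the 41401 symbols of the files. The comparison made is PRL1 siRNA against control siRNA within each of 3 cell lines, with the cytosolic enzymes beside the mitochondrial ones. Where a pair of levels is given for a line, control siRNA comes first and PRL1 siRNA second.

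Many cytosolic synthetase genes are known targets of ATF4, the transcription factor of the integrated stress response. In that response, kinases that sense amino acid shortage, misfolded protein or double-stranded RNA phosphorylate the initiation factor eIF2, general translation falls and ATF4 is translated more. Several cytosolic synthetases are held together in a multisynthetase complex, whereas the mitochondrial enzymes work alone and serve the few proteins encoded by mitochondrial DNA. GARS1 and KARS1 are exceptions to the compartment split, because each gene encodes both a cytosolic and a mitochondrial form.

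The cells were MDCK, an epithelial line from canine kidney. PRL1 and PRL2 (genes PTP4A1 and PTP4A2) are phosphatases that bind CNNM magnesium transporters, and the study concerns falling cellular magnesium and cell death that depends on NF-κB. Wild-type cells (WT) and 2 clones, D7 (clone 1) and F22 (clone 2), both of genotype PRL2-/-; PRL1+/-, were each given control siRNA or PRL1-siRNA, which makes 6 libraries, 1 per line and treatment. All were taken 18 h after a second transfection, so the control cells had also been transfected. Each mutant line is 1 clone, the clones retain 1 PRL1 allele, and the labels name no batch and do not say that libraries came from separate cultures.

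Levels are in FPKM, a fragment count divided by transcript length and by sequencing depth, so they can be compared between genes. A library held 22961 to 23964 symbols above 0. The absolute depth is unknown, and the knockdown library of clone 1 was the shallowest at 0.766 of the wild-type control. The targeted PTP4A1 was at 63.5 FPKM with control siRNA and 33.1 with PRL1 siRNA in wild type, at 61.7 and 37.8 in clone 1, and at 69.9 and 37.8 in clone 2. PTP4A2, the gene labelled PRL2-/- in both clones, was at 72.7 (control siRNA) and 59.0 FPKM (PRL1 siRNA) in wild type. Clone 1 had 80.4 and 69.1 FPKM, above wild type, and clone 2 had 56.7 and 48.3 FPKM, below it. Its transcript level therefore does not set the clones apart, and an FPKM value does not show whether a transcript is intact. PTP4A2 itself fell by 0.25 ± 0.04 on the log2 scale after PRL1 siRNA (SE, limma, adjusted p = 0.00572). All 8 kidney epithelial markers were detected (summed level 1600 to 2136 FPKM). After knockdown 3 of them rose and 4 fell (0 fell without the libraries of either clone), against 17.6% and 21.7% of all tested genes. The leukocyte list was at 1.52 to 2.56 FPKM in sum, with PTPRC and CD3E listed at 0 in every library. The endothelial list was at 0.76 to 1.25 FPKM and the fibroblast list at 0.147 to 0.474 FPKM.

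Cytosolic synthetase transcripts were lower after PRL1 siRNA in all 3 lines. Their summed level was 1138 FPKM with control siRNA and 984 with PRL1 siRNA in wild type, at 1255 and 1096 in clone 1, and at 1219 and 1050 in clone 2. The knockdown sum was thus 86.5%, 87.4% and 86.1% of the control sum. The mitochondrial sum was 220 and 222 FPKM in wild type, at 233 and 234 in clone 1, and at 224 and 220 in clone 2, which is 101.1%, 100.4% and 98.2% of control. The ratio of the cytosolic to the mitochondrial sum was 5.17 and 4.43 in wild type, at 5.37 and 4.68 in clone 1, and at 5.44 and 4.77 in clone 2. These are levels in the RNA of a whole dish, so fewer cells with a transcript and less of it per cell cannot be told apart.

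Gene by gene, 15 of the 19 cytosolic members fell, 0 rose and 4 did not pass, with a median change of -0.19. Among the 16 mitochondrial members 3 fell, 2 rose and 11 did not pass, with a median of 0.01. Changes are knockdown minus control on the log2(FPKM + 1) scale, tested with limma over the 6 libraries with the line as a term. A gene is said to rise or fall where its p, adjusted by the Benjamini-Hochberg method over the 12125 genes whose mean FPKM is 1 or more, is under 0.05. All 35 members passed that filter. Of all tested genes 21.7% fell and 17.6% rose, and their median change was -0.01. Each knockdown library was below the control of its line for 18 of 19 cytosolic and 6 of 16 mitochondrial members, against 35.8% of all tested genes. It was above its control in the 3 lines for 5 mitochondrial and 0 cytosolic members, against 31.6%. The 3 knockdown libraries lay below all 3 control libraries for 10 cytosolic and 2 mitochondrial members, against 16.2% of all tested genes.

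The number of members past the test depended on the clones. Without the pair of clone 1, 5 cytosolic members fell (7.92% of all tested genes), without that of clone 2, 8 (10.9%), and without the wild-type pair, 12 (19.0%). The median of the 19 was -0.19, -0.18 and -0.19 in these fits. The mitochondrial members that fell then numbered 2, 1 and 3, and those that rose 0, 0 and 2. The members that fell whichever line was left out were CARS1, IARS1, LARS1, SARS1 and YARS1 of the cytosol and EARS2 of mitochondria. Of the rest, WARS1, GARS1, HARS1, VARS1, RARS1, FARSB, AARS1, SARS2, PARS2 and CARS2 passed neither without clone 1 nor without clone 2. TARS1, NARS1 and EPRS1 did not pass without clone 1, nor did NARS2 without clone 2.

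**Figure D1:**
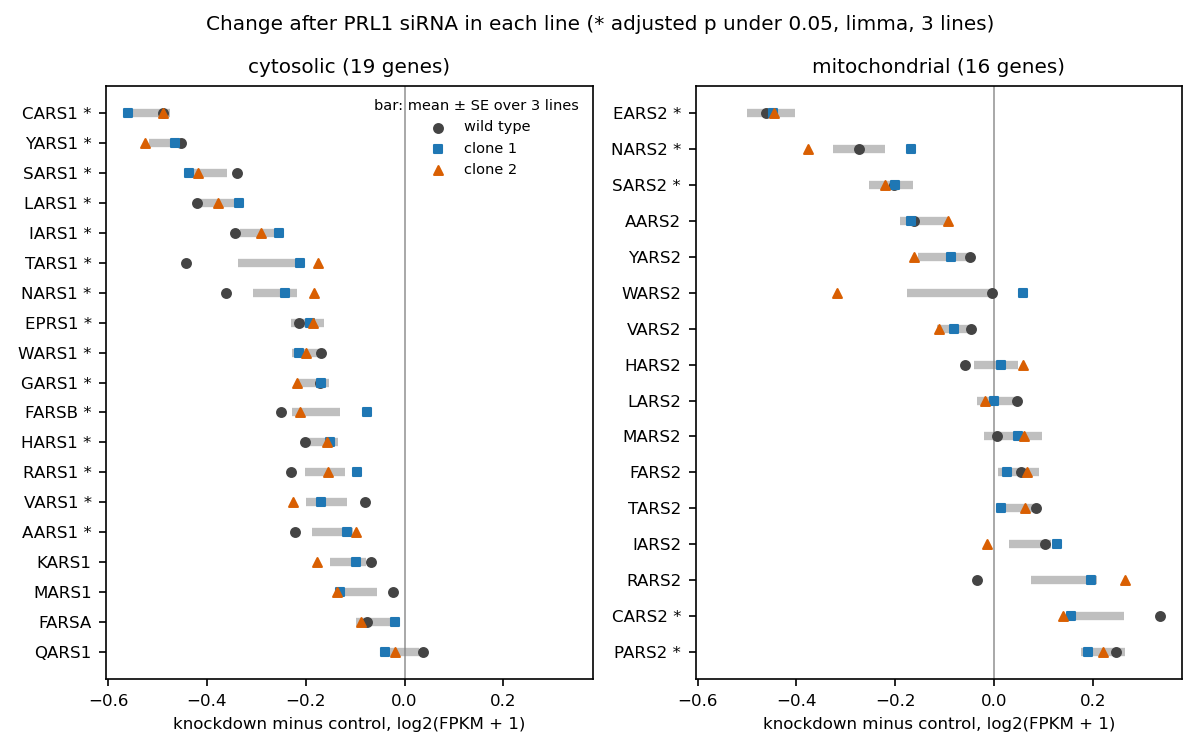
Change in each of the 35 synthetase transcripts after PRL1 siRNA. The x axis is knockdown minus control in log2(FPKM + 1), symbols are the 3 lines (1 pair of libraries each), grey bars are the mean ± SE over the lines, and an asterisk marks an adjusted p under 0.05. In the cytosolic panel every symbol but that of QARS1 in wild type lies below 0, whereas the mitochondrial members lie on both sides.

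CARS1, the cysteinyl enzyme, had the largest change of the cytosolic members. It was at 32.8 FPKM with control siRNA and 23.1 with PRL1 siRNA in wild type, at 33.7 and 22.6 in clone 1, and at 28.2 and 19.8 in clone 2. The knockdown libraries lay below every control library, and CARS1 fell by 0.51 ± 0.04 (SE, limma, adjusted p = 0.0015). YARS1, the tyrosyl enzyme, was at 46.0 and 33.4 FPKM in wild type, at 50.5 and 36.3 in clone 1, and at 44.6 and 30.7 in clone 2. These groups did not overlap either, and YARS1 fell by 0.48 ± 0.04 (SE, limma, adjusted p = 0.00156).

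SARS1, the seryl enzyme, was at 52.0 and 40.9 FPKM in wild type, at 57.7 and 42.4 in clone 1, and at 53.8 and 40.0 in clone 2. The 3 knockdown values lay within 3 FPKM of each other and below every control value. SARS1 fell by 0.40 ± 0.04 (SE, limma, adjusted p = 0.00199). TARS1, the threonyl enzyme, was at 45.2 and 33.0 FPKM in wild type, at 47.4 and 40.8 in clone 1, and at 45.2 and 39.9 in clone 2. Its 3 controls were close together, and the knockdown library of wild type was lower than those of the clones. TARS1 fell by 0.28 ± 0.06 (SE, limma, adjusted p = 0.0182), with -0.44, -0.21 and -0.17 in the 3 lines. NARS1, the asparaginyl enzyme, was at 86.7 and 67.3 FPKM in wild type, at 94.6 and 79.9 in clone 1, and at 86.0 and 75.7 in clone 2. The groups did not overlap, the wild-type knockdown library was again the lowest, and NARS1 fell by 0.26 ± 0.05 (SE, limma, adjusted p = 0.00911).

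The other members outside the multisynthetase complex changed less. In the whole group of 12 outside the complex, 11 fell, with a median change of -0.19, against 3 without clone 1 and 5 without clone 2. WARS1, the tryptophanyl enzyme, which is also known for its induction by interferon, fell by 0.19 ± 0.03, to 88.8%, 86.0% and 86.9% of control FPKM in wild type, clone 1 and clone 2. GARS1, which charges glycine in both compartments, fell by 0.19 ± 0.03, to 88.8%, 88.8% and 85.9%. HARS1 (histidine) fell by 0.17 ± 0.03 to 86.7%, 89.9% and 89.5%. In these 3 genes the lines differed by less than 4 percentage points. VARS1 (valine) fell by 0.16 ± 0.04 to 94.4%, 88.8% and 85.2%, and AARS1 (alanine) by 0.15 ± 0.04 to 85.4%, 92.1% and 93.3%. AARS1 did not pass with median-ratio scaling or with quantile normalization. Phenylalanyl-tRNA synthetase of the cytosol is built from a catalytic subunit, FARSA, and a second subunit, FARSB. FARSB fell by 0.18 ± 0.05, and FARSA was at -0.06 ± 0.04 (limma, adjusted p = 0.0338 and 0.243). FARSB was at 83.2%, 94.7% and 85.7% of control, and FARSA at 94.6%, 98.6% and 93.9%.

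Of the 7 members that belong to the multisynthetase complex, 4 fell and 3 did not pass (2 fell without clone 1). LARS1, the leucyl enzyme, which also acts as a leucine sensor for mTORC1, was at 24.4 and 17.96 FPKM in wild type, at 29.0 and 22.8 in clone 1, and at 27.6 and 21.0 in clone 2. The knockdown libraries were below every control, and LARS1 fell by 0.38 ± 0.04 (SE, limma, adjusted p = 0.00231). IARS1, the isoleucyl enzyme, was at 44.9 and 35.2 FPKM in wild type, at 54.5 and 45.5 in clone 1, and at 54.7 and 44.5 in clone 2. The groups overlapped because the wild-type control was as low as the knockdown libraries of the clones. Within each line the knockdown library was lower, and IARS1 fell by 0.30 ± 0.04 (SE, limma, adjusted p = 0.00375).

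EPRS1, one protein that charges both glutamate and proline, was at 71.3 and 61.3 FPKM in wild type, at 83.7 and 73.2 in clone 1, and at 76.9 and 67.5 in clone 2. The groups overlapped here too, and EPRS1 fell by 0.20 ± 0.03 (SE, limma, adjusted p = 0.00841). RARS1 (arginine) fell by 0.16 ± 0.04, to 85.0%, 93.4% and 89.6% of control in wild type, clone 1 and clone 2. KARS1, which charges lysine in both compartments, was at 198 and 189 FPKM in wild type, at 207 and 193 in clone 1, and at 196 and 174 in clone 2. It missed the threshold at -0.11 ± 0.04 (limma, adjusted p = 0.055) although its groups did not overlap. MARS1, the methionyl enzyme, was at 98.3%, 91.1% and 90.7% of control (-0.10 ± 0.04, limma, adjusted p = 0.112). QARS1, the glutaminyl enzyme, was at 40.2 and 41.3 FPKM in wild type, at 38.8 and 37.7 in clone 1, and at 38.0 and 37.5 in clone 2. Its change of -0.01 ± 0.04 was smaller than its error (limma, adjusted p = 0.897), and it was the one cytosolic member with a higher knockdown level in a line.

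The scaffold proteins of the complex did not pass. AIMP1 was at -0.12 ± 0.05, AIMP2 at -0.10 ± 0.06 and EEF1E1 at -0.01 ± 0.04. In this list 0 of 3 genes passed limma's adjusted threshold and 1 had an unadjusted p under 0.05. Synthetases are also divided by the fold of their catalytic domain into class I and class II, and 7 of 9 cytosolic members of each class fell, leaving out EPRS1, which holds both. Without clone 1 these counts were 4 in class I and 1 in class II, and without clone 2 they were 4 and 3.

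**Figure D2:**
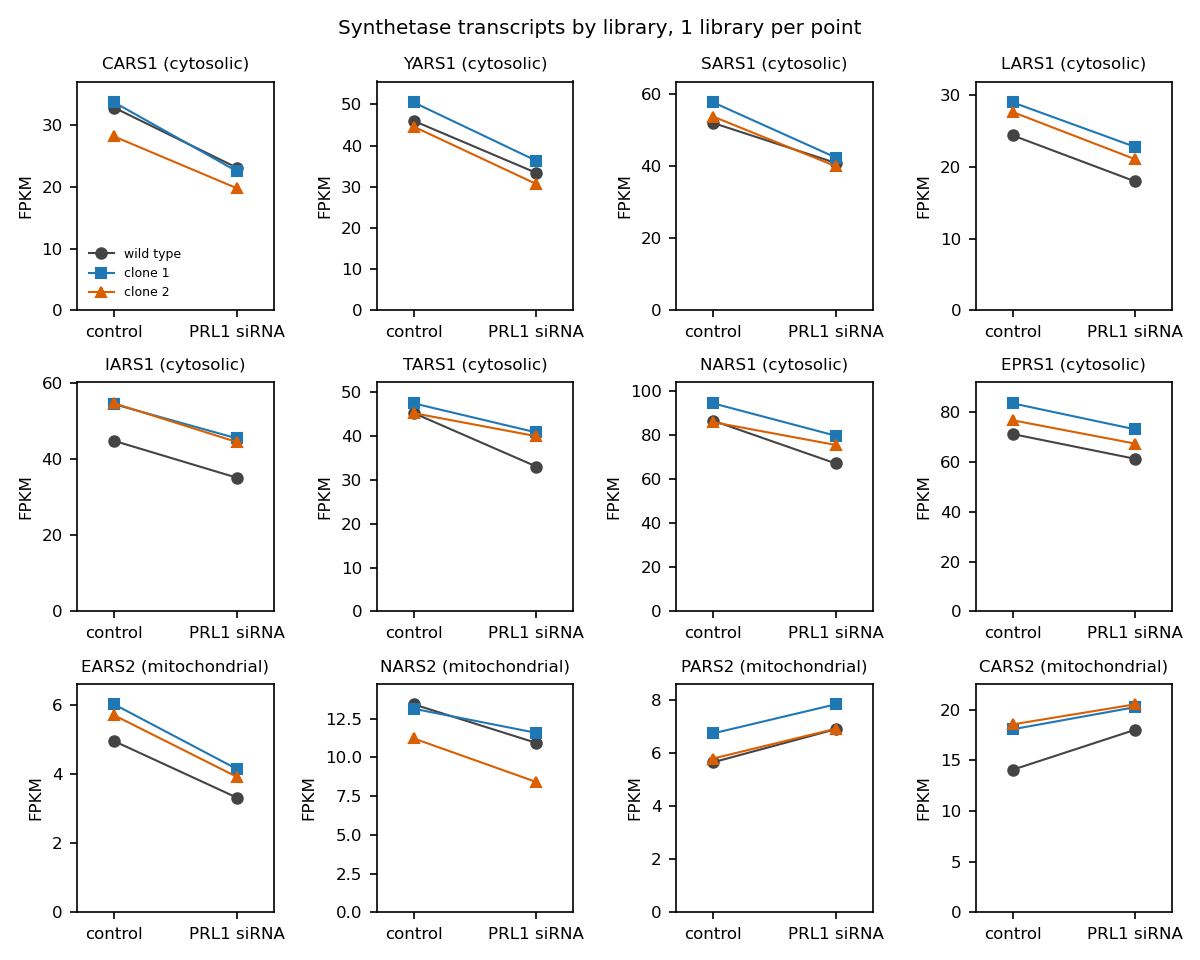
FPKM of the 8 cytosolic and 4 mitochondrial members with the largest changes, under control and PRL1 siRNA, 1 library per point and 1 line style per cell line, with y axes from 0. The 8 cytosolic transcripts slope down in each line, as do EARS2 and NARS2, whereas PARS2 and CARS2 slope up.

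Among mitochondrial enzymes the fall was seen in 3 genes. EARS2, the glutamyl enzyme, was at 4.95 FPKM with control siRNA and 3.32 with PRL1 siRNA in wild type, at 6.01 and 4.14 in clone 1, and at 5.69 and 3.92 in clone 2. The knockdown libraries were at 67.0%, 68.9% and 68.8% of control, close to each other and below every control library. EARS2 fell by 0.45 ± 0.05 (SE, limma, adjusted p = 0.00252). NARS2, the asparaginyl enzyme, was at 13.4 and 10.9 FPKM in wild type, at 13.1 and 11.6 in clone 1, and at 11.2 and 8.42 in clone 2. Clone 2 had the lowest level under each siRNA. Its control lay below the knockdown library of clone 1, so the groups overlapped, and NARS2 fell by 0.27 ± 0.05 (SE, limma, adjusted p = 0.0129). SARS2 (serine) fell by 0.21 ± 0.04, to 84.9%, 85.1% and 83.5% of control (SE, limma, adjusted p = 0.0173), with no overlap between groups.

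PARS2, the prolyl enzyme, and CARS2, the cysteinyl enzyme, rose. PARS2 was at 5.66 and 6.91 FPKM in wild type, at 6.75 and 7.85 in clone 1, and at 5.80 and 6.93 in clone 2. Its knockdown libraries were above every control library, and PARS2 rose by 0.22 ± 0.04 (SE, limma, adjusted p = 0.0146). CARS2 was at 14.1 and 18.005 FPKM in wild type, at 18.05 and 20.2 in clone 1, and at 18.5 and 20.5 in clone 2. The wild-type control was lower than every other library, and CARS2 rose by 0.21 ± 0.05 (SE, limma, adjusted p = 0.0267). Without the wild-type pair CARS2 was at 0.15 (adjusted p = 0.0507).

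The 11 mitochondrial members that did not pass had changes from -0.14 (AARS2) to 0.14 (RARS2). RARS2, the arginyl enzyme, was at 12.0 and 11.7 FPKM in wild type, at 9.14 and 10.6 in clone 1, and at 9.10 and 11.1 in clone 2. The clones started below wild type and were higher after knockdown, and wild type did not move with them. WARS2 (tryptophan) was at 3.14 and 3.13 FPKM in wild type, at 2.74 and 2.89 in clone 1, and at 3.26 and 2.42 in clone 2. Its lines disagreed in direction, and its SE of 0.09 was larger than that of any other member. AARS2, YARS2 and VARS2 were lower after knockdown in each line, by 0.14 ± 0.05, 0.10 ± 0.06 and 0.08 ± 0.04 on average, without passing. FARS2, TARS2 and MARS2 were higher in each line, by 0.05 ± 0.04, 0.05 ± 0.04 and 0.04 ± 0.06. IARS2 was at 0.07 ± 0.04, LARS2 at 0.01 ± 0.04 and HARS2 at 0.00 ± 0.04. These last 3 values lie within 0.1 of the median of all genes.

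Set side by side by amino acid, 17 pairs of a cytosolic and a mitochondrial enzyme can be formed, with EPRS1 and FARS2 used more than once. The change of the cytosolic enzyme was the more negative one in 3 of 3 lines in 13 pairs. For cysteine, the cytosolic minus the mitochondrial change was -0.82 in wild type, -0.72 in clone 1 and -0.63 in clone 2, the widest gap of the 17. Isoleucine had -0.44, -0.38 and -0.28, and leucine had -0.47, -0.34 and -0.36. Glutamate was the one amino acid with the order turned in each line, with the change of EARS2 more negative than that of EPRS1 by 0.25, 0.26 and 0.26. In FPKM, EARS2 was at 67.0%, 68.9% and 68.8% of control and EPRS1 at 86.0%, 87.5% and 87.8%. The pseudocount of 1 shrinks the log2 changes of low mitochondrial partners, so the gaps for such pairs are altered by it. Proline, charged in the cytosol by the same EPRS1 protein, had -0.46, -0.38 and -0.41 against PARS2. Serine and asparagine were the amino acids for which both enzymes fell, beside glutamate.

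**Figure D3:**
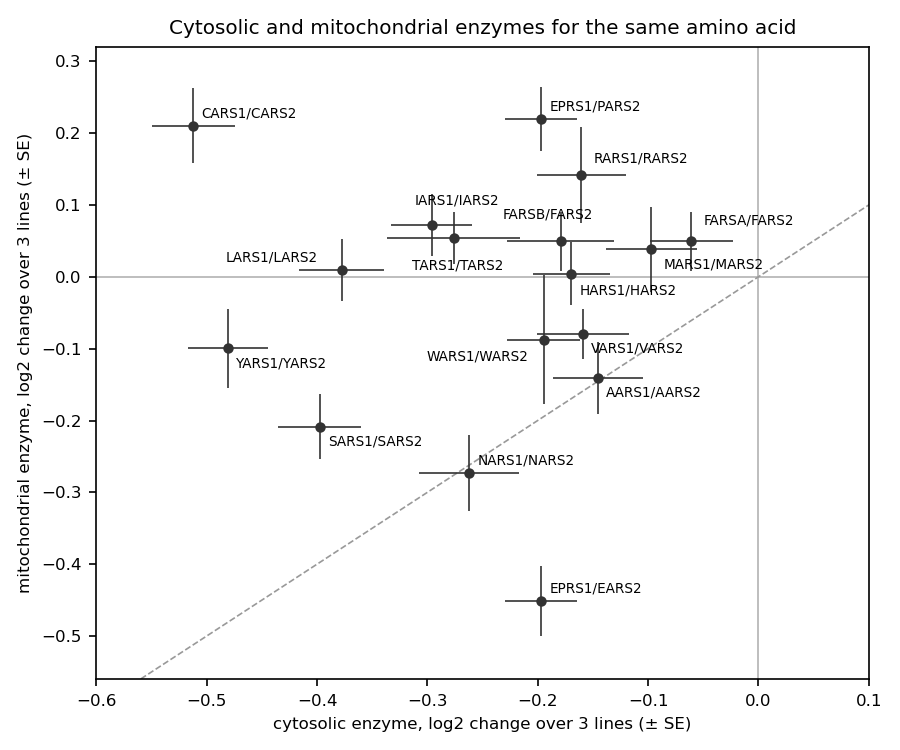
Mean log2 change over the 3 lines (± SE) of each cytosolic enzyme (x axis) against the mitochondrial enzyme for the same amino acid (y axis), 17 pairs, with a dashed line of equal change. Points lie above the line for most amino acids, CARS1/CARS2 farthest from it (-0.51 and 0.21), and EPRS1/EARS2 lies below it (-0.20 and -0.45).

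The levels of the cytosolic enzymes were higher than those of their mitochondrial partners in all 17 pairs, from 1.12 times for valine to 32.0 times for tryptophan, with a median of 4.63, as mean FPKM over the 6 libraries. KARS1 (193 FPKM) and GARS1 (148), which serve both compartments, were the most abundant members. WARS1 (93.8), NARS1 (81.7) and EPRS1 (72.3) followed, and FARSB was the lowest cytosolic member at 18.5. Among mitochondrial members VARS2 was highest at 52.0 FPKM, ahead of IARS2 at 39.0 and TARS2 at 35.6. WARS2 at 2.93 and MARS2 at 2.53 were the lowest of all 35. The pseudocount of 1 shrinks the log2 changes of such low genes.

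In the clones taken alone, with the clone as a block (the replicate block, in which each knockdown library is set against the control of its own clone), 12 cytosolic members fell and 3 mitochondrial members fell and 2 rose. Of all tested genes 19.0% fell and 14.3% rose in this paired fit, which is the same fit as that without the wild-type pair above. AARS1, RARS1 and FARSB, which fell over the 3 lines, missed the threshold here, and the 4 members that had not passed before did not pass either. RARS2 rose by 0.23 ± 0.05 in the paired clones (limma, adjusted p = 0.0321), as did PARS2. Without the block, when the spread between clones counts as error, 0.0% of tested genes passed, with a smallest adjusted p of 0.106. At an unadjusted p under 0.05 limma then gave 10 cytosolic and 2 mitochondrial members and 2575 genes in all. The medians for the cytosolic list in the single lines were -0.22 in wild type, -0.17 in clone 1 and -0.19 in clone 2, and those for the mitochondrial list -0.02, 0.01 and -0.02.

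No member passed a test of the difference between its knockdown effect in the clones and in wild type. In the model of 4 groups, where the spread between clones counts as error, 0.0% of tested genes passed limma's adjusted threshold, with a smallest adjusted p of 0.474, and 136 genes but 0 members had an unadjusted p under 0.05. RARS2 and TARS1 had the largest differences, at 0.27 ± 0.11 and 0.25 ± 0.10 (clones minus wild type, SE, limma, unadjusted p = 0.0706 and 0.0666). With the line as a block over all 6 libraries, a fit added after the data were seen, 1 gene passed (0.00825% of those tested). That gene was TXNIP, which is no member, and 1228 genes, 1 cytosolic and 2 mitochondrial members had an unadjusted p under 0.05 in limma. These members were TARS1 (0.25 ± 0.06, adjusted p = 0.471), RARS2 (0.27 ± 0.08, adjusted p = 0.473) and CARS2 (-0.19 ± 0.07, adjusted p = 0.49). Wild type is 1 pair of libraries and was assumed to vary like the clones.

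Between the clones and wild type under control siRNA no gene passed, though several synthetase transcripts were at higher values in both clones. In this comparison 0.0% of tested genes had an adjusted p under 0.05 (smallest 0.098), and 1632 genes, 6 cytosolic and 2 mitochondrial members had an unadjusted p under 0.05 in limma. Both clones were above wild type for 13 of 19 cytosolic and 8 of 16 mitochondrial members, against 43.6% of all tested genes. VARS1 was at 49.1 FPKM in wild type, 67.7 in clone 1 and 67.6 in clone 2, a difference of 0.46 ± 0.07 (limma, adjusted p = 0.245). MARS1 was at 25.1, 34.9 and 34.5 FPKM, a difference of 0.45 ± 0.06 (limma, adjusted p = 0.245). In both genes the clones lay close together and apart from wild type. RARS2 went the other way, at 12.0, 9.14 and 9.10 FPKM (-0.36 ± 0.08), and CARS2 was higher in the clones by 0.36 ± 0.07. The median difference of the cytosolic list was 0.10 on the deposited scale, 0.06 with median-ratio scaling and 0.03 with quantile normalization. Over all tested genes it was 0.03, -0.0060 and -0.0016 in the same order. That of the mitochondrial list was 0.05, 0.01 and 0.00. This comparison shares its control libraries with the knockdown comparison, so the changes after knockdown are not independent of it.

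**Figure D4:**
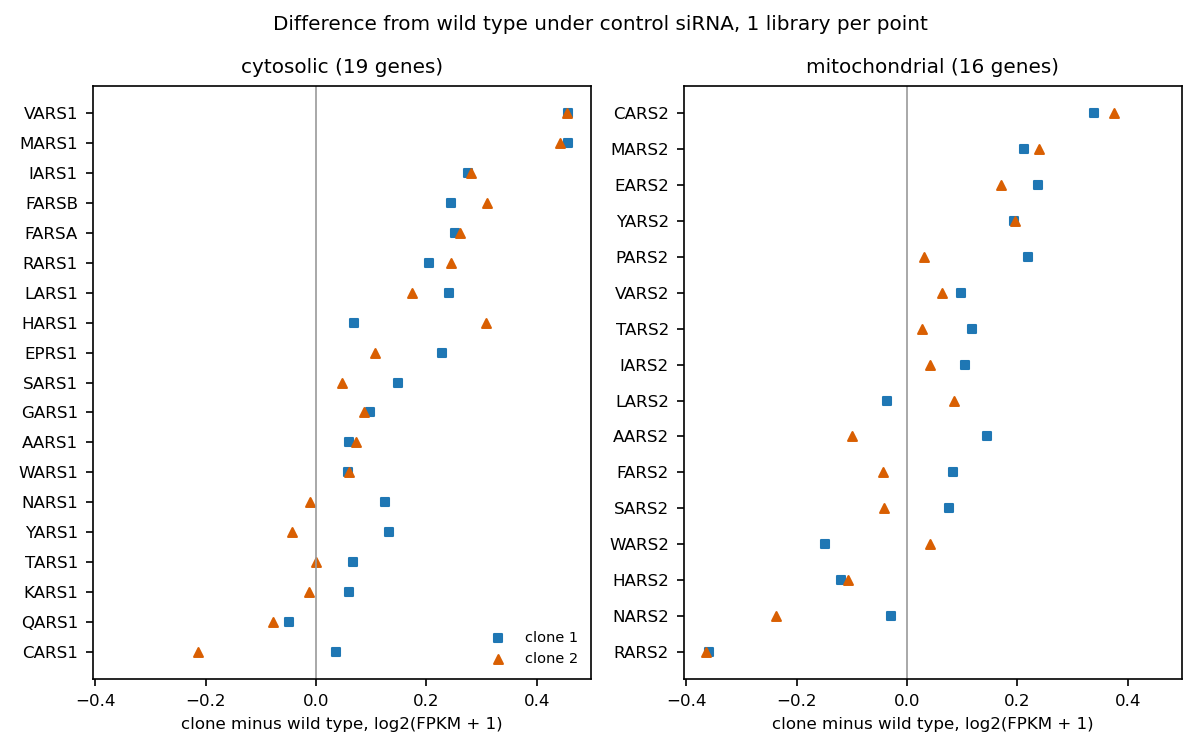
Difference of each clone from wild type under control siRNA for the 35 members, in log2(FPKM + 1), 1 library per point. VARS1 and MARS1 lie near 0.45 in both clones, RARS2 near -0.36, and most other members between -0.3 and 0.4.

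Genes around the synthetases were read from lists on charging of tRNA and on the stress response. ATF4 itself was at 438 FPKM with control siRNA and 323 with PRL1 siRNA in wild type, at 471 and 298 in clone 1, and at 384 and 219 in clone 2. The knockdown libraries lay below every control, and ATF4 fell by 0.63 ± 0.07 (SE, limma, adjusted p = 0.00277). Of 26 tested genes of the integrated stress response and ATF4 targets, 19 fell, 1 rose and 6 did not pass, with a median of -0.50. Among all tested genes, 21.7% fell and 17.6% rose. Without the pair of clone 1, 13 fell. STC2, the remaining gene of the list, was under the filter. The deepest falls were those of DDIT3, which encodes CHOP (-2.18 ± 0.13), CHAC1, a glutathione-degrading enzyme (-2.12 ± 0.11), MTHFD2, a mitochondrial folate enzyme (-1.003 ± 0.07), and SLC7A5, a leucine transporter (-0.96 ± 0.04). ASNS, asparagine synthetase, fell by 0.51 ± 0.04, as much as CARS1. NUPR1, a stress-induced chromatin protein, rose by 0.51 ± 0.05, from 61.0 to 95.4 FPKM in wild type, 43.4 to 61.7 in clone 1 and 49.5 to 65.7 in clone 2. PSAT1, PSPH, VLDLR, ATF3, CEBPB and ALDH1L2 did not pass.

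Of 7 genes for the eIF2 kinases and eIF2, 3 fell and 1 rose, against 21.7% and 17.6% of all tested genes. All 3 eIF2 subunits fell, EIF2S2 (beta) by 0.40 ± 0.04, EIF2S3 (gamma) by 0.31 ± 0.04 and EIF2S1 (alpha, the phosphorylated one) by 0.18 ± 0.04. In this list 2 genes fell without the wild-type pair, 2 without clone 1 and 3 without clone 2. EIF2S1 missed the threshold without the wild-type pair (limma, adjusted p = 0.059). EIF2AK4, which encodes GCN2, the kinase that binds uncharged tRNA, rose by 0.14 ± 0.04 (limma, adjusted p = 0.0351). It was at 9.22 and 10.4 FPKM in wild type, at 11.5 and 12.7 in clone 1, and at 12.2 and 13.5 in clone 2. Without the wild-type pair, or without either clone, EIF2AK4 was not among those that passed, as 0 genes of this list then rose.

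Charged tRNA is carried to the ribosome by elongation factor eEF1A, and 2 of 5 tested cytosolic elongation factor genes fell, EEF1A1 by 0.40 ± 0.05 and EEF1B2 by 0.21 ± 0.04. With either clone left out, 1 of the 5 fell, and EEF1A2 was under the filter. XPOT, the export receptor for tRNA, fell by 0.28 ± 0.04, and ELAC2, which trims the 3′ end of tRNA precursors, by 0.26 ± 0.05. TRNT1, which adds the CCA end to which the amino acid is attached, rose by 0.18 ± 0.04. Of the 12 tested tRNA maturation genes, 3 fell and 1 rose (25% and 8.33%), against 21.7% and 17.6% of all tested genes. Without clone 1 or without clone 2, 1 of the 12 passed. DTD1 and DTD2, which remove D-amino acids or wrong amino acids from charged tRNA, fell by 0.24 ± 0.07 and 0.29 ± 0.07, and neither passed when any line was left out.

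Mitochondrial translation factors did not pass in any case, 0 of 10 by limma, with 1 at an unadjusted p under 0.05 and a median of -0.05. Mitochondria have no glutaminyl-tRNA synthetase of their own. EARS2 charges that tRNA with glutamate, and an amidotransferase made of QRSL1, GATB and GATC converts it. QRSL1, its catalytic subunit, was at 20.4 and 17.8 FPKM in wild type, at 18.4 and 15.5 in clone 1, and at 14.8 and 12.9 in clone 2. It fell by 0.20 ± 0.04 (SE, limma, adjusted p = 0.0114), but not without either clone, whereas GATC was at -0.10 ± 0.04 and GATB at 0.15 ± 0.06 without passing.

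**Figure D5:**
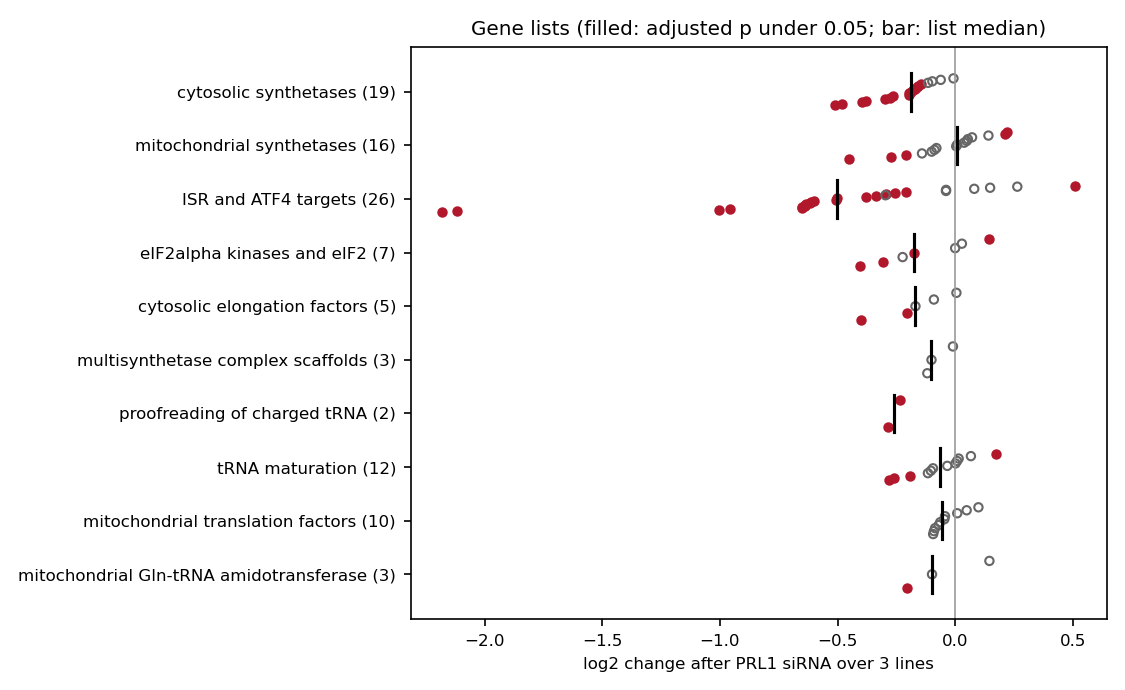
Mean log2 change over the 3 lines (x axis) of each tested gene in the synthetase lists and the lists around them, with red points at an adjusted p under 0.05, open points otherwise, and a black bar at the list median. The cytosolic synthetases lie between -0.51 and -0.01, and the stress response list reaches from -2.18 to 0.51.

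Some members overlap another protein-coding gene in the RefSeq annotation of assembly UU_Cfam_GSD_1.0, used here for gene names and positions. The strand setting of the counting is not stated in the sources used here. Such fragments may have been shared. This holds for 9 members. MARS1 overlaps DDIT3 and ARHGAP9. DDIT3 was at 54.3 and 13.3 FPKM in wild type, at 38.8 and 5.52 in clone 1, and at 23.1 and 5.10 in clone 2, and ARHGAP9 was below 1.2 FPKM in each library. The small change of MARS1 is therefore uncertain. HARS1 and HARS2 overlap each other, and YARS1 overlaps S100PBP, which was at -0.06 ± 0.04. CARS2 overlaps NAXD (0.13 ± 0.04), WARS1 overlaps WDR25 (0.13 ± 0.07), IARS2 overlaps RAB3GAP2 (0.04 ± 0.04), YARS2 overlaps DNM1L (0.21 ± 0.08), and MARS2 overlaps RFTN2, which was below 0.06 FPKM. Of these neighbours, DDIT3 and HARS1 were the ones that passed the test. ARHGAP9 and RFTN2 were under the filter and were not tested. ARHGAP9 was at 56.0%, 46.8% and 54.6% of control FPKM in wild type, clone 1 and clone 2. The part of shared fragments in the changes of these members was not tested.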

How the data were processed

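FPKM values, 1 per gene symbol and library, were computed and deposited by the authors. The submitters' processing notes name HISAT2 2.1.0, Cufflinks 2.2.1 and Cuffdiff. The sources used here give no build, annotation or strand setting for the counting. Per the labels' protocols, libraries were made with a stranded mRNA kit. FPKM do not keep the number of fragments. The depth of each library against the wild-type control came from ratios of values under 0.1 FPKM.

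From these values log2(FPKM + 1) was tested with limma 3.58.1 (R 4.3.3, intensity trend) over the genes whose mean FPKM is 1 or more. The model over 3 lines has 2 residual and 3.58 prior degrees of freedom. A model of 4 groups gave the clone, genotype and interaction contrasts, and a fit with the line as a block was added for the interaction. The procedure was tested on simulated data. Replicate numbers pair the clone libraries, since equal numbers mean the same clone (deviations correlated with r = 0.595). P-values measure the spread between these libraries. Of 41401 symbols, 38797 matched RefSeq names.

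The members and lists were chosen with earlier results of these data known. Named in full were the 8 cytosolic and 4 mitochondrial members of largest absolute change, members that passed against their list, and, of other lists, ATF4 and up to 4 passing genes. ASNS, NUPR1, genes of other lists that did not pass, and the full values of RARS2, WARS2, KARS1 and QARS1 were added after these were seen. Some genes of these lists are not reported here by name.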

Additional observations from a re-analysis of the deposited data

How the results depend on the processing

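The 20 members that passed over the 3 lines kept their direction under every alternative they were tested in (10, or 9 for EARS2, whose mean is under 5 FPKM), and 273 of 345 member values kept both direction and call. CARS1, SARS1 and YARS1 passed under all 10, and AARS1 under 2. AARS1 did not pass with median-ratio scaling, quantile normalization or no intensity trend. FARSB did not pass with quantile normalization, nor VARS1 with no intensity trend. The counts of cytosolic members that fell, mitochondrial members that fell and that rose, and genes that passed were 15, 3, 2 and 4762. They became 7, 1, 0 and 1179 with no filter on low genes, and 3, 0, 0 and 416 without the line term (no replicate block). Leaving out the pair of 1 line gave 5 to 12, 1 to 3, 0 to 2 and 1709 to 4037. In the clones, the replicate block (the same fit as that without the wild-type pair) gave 12, 3, 2 and 4037, against 0 of each without the block. For the difference between effects the replicate block, added after seeing the data, gave 1 gene and 0 members. The genotype comparison lies between lines, so it has no fit with the line as a block. For clones against wild type 165 genes passed with no filter and 4 with no intensity trend, and for the difference between effects 157 and 4, none of them a member. Directions turned for 5 members that had not passed: QARS1 (0.0167 with median-ratio scaling, 0.00848 with quantile normalization, -0.0291 to 0.00937 with a line left out), HARS2 (-0.0221 to 0.036 with a line left out), LARS2 (-0.00895 to 0.0235), WARS2 (-0.161 to 0.0279) and MARS2 (-0.00112 with quantile normalization). In clone 2 alone, median-ratio scaling moved the medians to -0.154 (cytosolic) and 0.0143 (mitochondrial). The cause of these shifts was not tested. FPKM without counts give no sampling error, which limits the low mitochondrial members most.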
